A study of Mus musculus with 13 samples.

Results

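The macrophage genes described here are 33 of the 25965 gene rows of an expression table of mouse embryonic fibroblasts (MEFs). The list held 34 names, and 1 of them, Adgre1, is present under its older symbol Emr1. They are known markers of macrophages, chosen by their measured levels, which stood high in 1 of the 13 libraries, so their height in that library is given as a description with no test.

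Poly(A) RNA was measured in primary MEFs from E13.5 embryos. The study's methods describe these MEFs as carrying an Xist allele with a deleted A repeat on 1 X chromosome and the X called PGK on the other (XistΔA/PGK). Per the labels' general protocol, cells were transduced with hairpin retroviruses, selected with puromycin after 24 h, grown without or with 5-azacytidine (5-aza), an inhibitor of DNA methylation, for 24 h from day 3, and harvested on day 7. The 4 hairpin groups had 3 libraries each: control hairpin, control hairpin + 5-aza, Setdb1 hairpin and Setdb1 hairpin + 5-aza. Setdb1 is a methyltransferase for lysine 9 of histone H3. Replicate 1 carried a luciferase hairpin in the controls and shSetdb1.6 in the Setdb1 groups, and replicates A and B carried a non-silencing hairpin or shSetdb1.4. The last library, with 5-aza and no named hairpin, is 1 culture, and the labels do not say whether it was transduced or selected. By the study's methods, Setdb1 hairpins went into MEFs heterozygous for a gene trap in Setdb1, whereas MEFs without the trap received the non-silencing hairpin. The labels give neither genotype nor embryo for a library, so hairpin and genotype cannot be told apart. The library name of the culture with no named hairpin is PGK_5aza. The study's methods defined variants of the PGK X from a PGK sample that lacked the reference allele. Whether this culture is that sample, and so not XistΔA/PGK, is not stated. Its embryo is not known, so strain and genotype cannot be told apart from the lack of a named hairpin.

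Values are in RPM, reads scaled to a common library size, and the reads behind them were recovered from the steps of the table. The hairpin libraries held 41.9 to 58.8 M reads, so that 1 read was worth 0.017 to 0.0239 RPM, and the library with no named hairpin held 20.4 M, at 0.0491 RPM a read. Setdb1 was at 46.3 and 43.4 RPM (means, n = 3) with control hairpins without and with 5-aza, at 14.1 and 12.9 RPM with Setdb1 hairpins, and at 47.0 RPM with no named hairpin. Fibroblast genes were abundant in all 13 libraries. Levels of 14 fibroblast genes summed to 28770 to 44860 RPM with hairpins and 47530 RPM with no named hairpin, and each of the 14 was detected there. Xist was at 191 to 296 RPM with hairpins and 313 RPM without, and Kdm5d and Eif2s3y, both Y-linked, had 0 reads in all 13.

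Macrophages are phagocytes of blood or yolk sac origin that settle in nearly every embryonic tissue. They depend on signals through the CSF1 receptor, which binds CSF1 and IL34, and the transcription factor PU.1, which binds DNA at purine-rich words around GAGGAA, sets much of their program. They are known for making C1q, lysozyme and Fc receptors, and their surface carries CD45, F4/80 and CD11b.

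Upstream sequences are shown for 6 members on which the results turn, chosen after their values had been seen. C1qb, Ctss, Mpeg1 and Vav1 were near absent from the hairpin cultures and present in the other, and Itgam and Cd53 had the largest log2 rise after 5-aza with control hairpins among the 15 members that could be tested. Each line gives the 250 bases before the RefSeq start site in GRCm38.p6, 5′ to 3′ on the gene's strand. Capitals mark the word GAGGAA or the related word AGGAAGT on either strand.
C1qb (chr4:136886201-136886450, minus strand): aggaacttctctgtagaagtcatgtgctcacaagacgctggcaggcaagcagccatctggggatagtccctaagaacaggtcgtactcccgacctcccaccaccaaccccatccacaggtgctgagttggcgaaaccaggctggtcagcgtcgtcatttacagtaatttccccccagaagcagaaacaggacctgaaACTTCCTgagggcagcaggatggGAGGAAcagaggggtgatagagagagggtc
Ctss (chr3:95526536-95526785, plus strand): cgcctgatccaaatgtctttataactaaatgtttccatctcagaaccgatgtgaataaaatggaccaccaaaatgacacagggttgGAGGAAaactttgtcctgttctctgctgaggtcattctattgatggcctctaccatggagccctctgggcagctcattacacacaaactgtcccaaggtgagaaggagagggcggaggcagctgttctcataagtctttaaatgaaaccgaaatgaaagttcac
Mpeg1 (chr19:12460520-12460769, plus strand): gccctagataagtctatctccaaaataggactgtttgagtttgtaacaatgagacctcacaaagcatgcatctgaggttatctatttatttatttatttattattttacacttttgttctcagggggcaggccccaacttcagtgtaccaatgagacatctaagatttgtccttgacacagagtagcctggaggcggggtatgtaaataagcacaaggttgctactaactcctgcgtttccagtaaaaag
Vav1 (chr17:57278850-57279099, plus strand): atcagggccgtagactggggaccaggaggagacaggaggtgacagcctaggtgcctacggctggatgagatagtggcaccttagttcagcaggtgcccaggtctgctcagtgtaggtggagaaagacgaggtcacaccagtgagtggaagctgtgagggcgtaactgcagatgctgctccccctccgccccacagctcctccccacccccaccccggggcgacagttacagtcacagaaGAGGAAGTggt
Itgam (chr7:128062390-128062639, plus strand): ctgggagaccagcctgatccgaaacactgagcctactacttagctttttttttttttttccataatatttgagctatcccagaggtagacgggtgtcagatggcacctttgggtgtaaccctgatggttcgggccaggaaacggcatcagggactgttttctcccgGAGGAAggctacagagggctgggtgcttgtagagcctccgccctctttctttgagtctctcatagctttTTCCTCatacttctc
Cd53 (chr3:106790150-106790399, minus strand): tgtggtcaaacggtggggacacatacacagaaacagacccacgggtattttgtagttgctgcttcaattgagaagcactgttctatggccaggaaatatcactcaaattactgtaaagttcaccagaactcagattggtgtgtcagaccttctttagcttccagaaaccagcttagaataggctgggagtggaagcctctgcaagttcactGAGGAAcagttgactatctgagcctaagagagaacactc

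Of these 6 windows, 5 held a capital word, and Mpeg1 held none. In Vav1 the 2 words overlapped and began 11 and 10 bases before the start, in Cd53 GAGGAA began at 39 bases, and in Itgam the nearer of 2 matches began at 15 bases. RefSeq windows were found for 26 of the 33 members. In them, 15 (57.7%) held GAGGAA on either strand, against 25.9% of 27025 genes with windows of the same length, and 7 (26.9%) held AGGAAGT, against 8.8%. Both words share 5 letters and are not separate counts. They are 2 of 10 words searched, and the words and the window length were settled after their counts had been seen. The shorter core GGAAGT was in 34.6% of the members and 22.2% of all genes. The joined word GAGGAAGT was in 7.69% and 2.79%. TGAGTCA, the word of AP-1 factors, was in 11.5% of the members and 5.16% of all genes. TATAA was in 30.8% and 25.8%. AGAGGAAGT was in 1 member, and 0 members held the E-box CACGTG, the palindrome TTGCGCAA or the 11-base word searched, which extends GAGGAA. Purine-rich runs around GAGGAA other than the words searched were not counted. With 50 bases after the start included, GAGGAA was in 65.4% of the members and 31.3% of all genes. A match is a run of letters and no evidence of binding. The windows of the members held a median of 4 CG pairs (1 to 16), and those of all genes 6 (0 to 56).

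In the culture with no named hairpin every member stood above its level in each of the 12 hairpin libraries. Levels there ran from 0.442 RPM for Ly86, the MD-1 partner of the receptor CD180, to 55.9 RPM for Lyz2, the lysozyme of macrophages. Of the 33 members, 31 had at least 1 RPM in this culture or in the pooled control hairpin + 5-aza libraries, which match it for 5-aza, and 28 of these were at least 4-fold higher in it. Over all 13323 genes of that level, 1.38% were as much higher and 0.525% as much lower. The median ratio of the 31 was 5.92 on the log2 scale, and that of all genes was 0.002. Members made up 19 of the 50 highest ratios and 25 of the 100 highest. The rule used this contrast, so nothing is read from these counts. The 3 members short of 4-fold were Cd53 (2.82-fold), Csf1r (2.41-fold) and Cd14 (2.21-fold), and the nearest above it were C3ar1 (4.56-fold) and Itgam (5.09-fold). In bulk RNA, fewer cells of a type and less RNA per cell cannot be told apart.

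**Figure D1:**
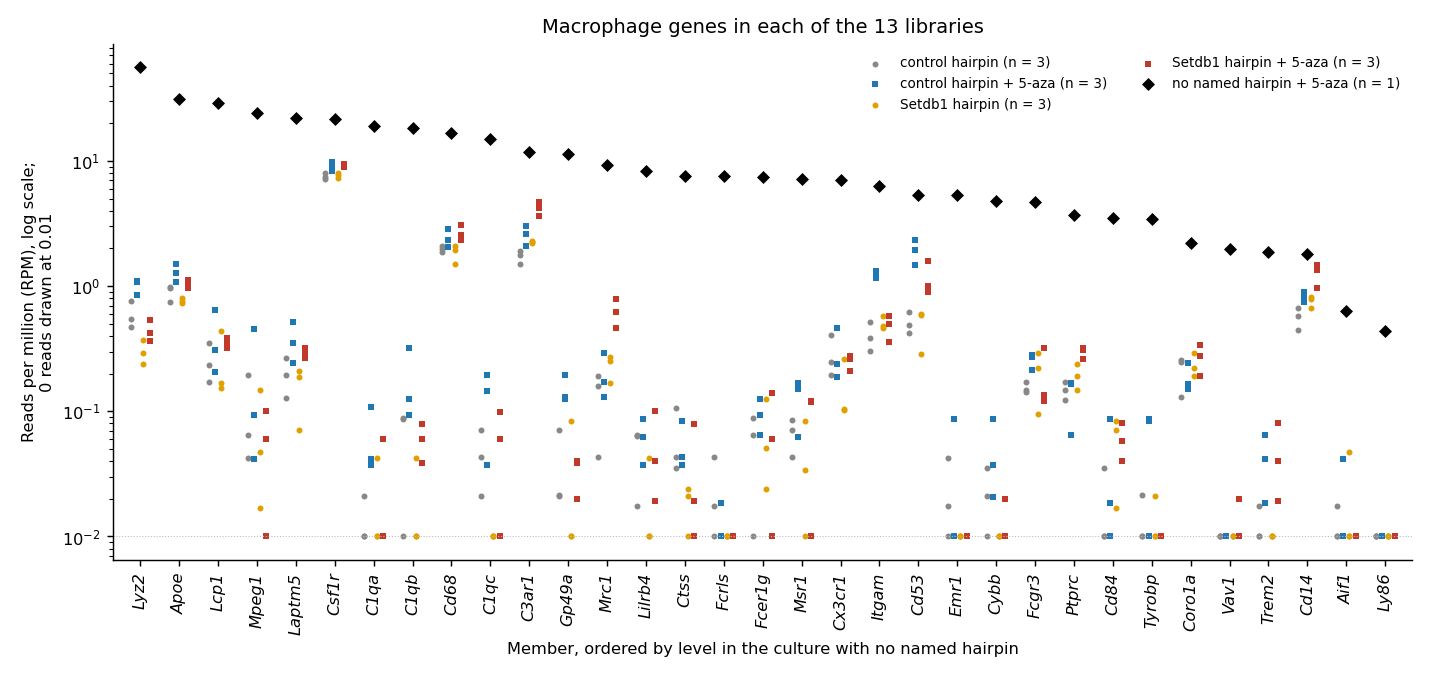
Level of each of the 33 members (RPM, log scale) in the 13 libraries, with 1 point per library, members ordered by their level with no named hairpin, and 0 reads drawn at 0.01. The black diamonds of that single culture stand above all hairpin libraries, from 55.9 RPM for Lyz2 to 0.442 RPM for Ly86, and Csf1r, Cd14, C3ar1 and Cd53 come nearest to them.

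**Figure D2:**
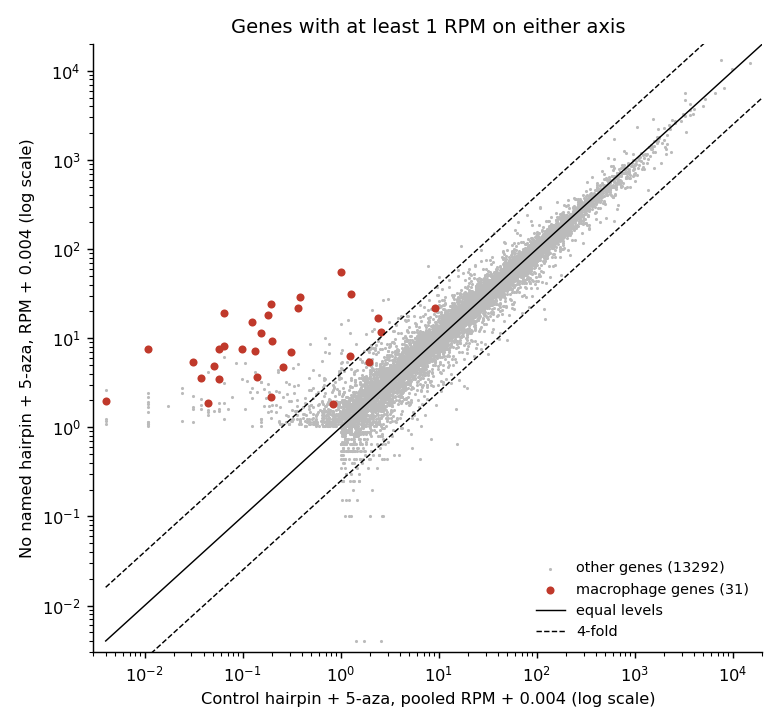
Level with no named hairpin and 5-aza (1 library) against the pooled level of the 3 control hairpin + 5-aza libraries, on log scales with 0.004 RPM added, for the 13323 genes with at least 1 RPM on either axis. Most genes lie along the line of equal levels, and 28 of the 31 red macrophage genes lie above the upper 4-fold line.

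The genes of complement split between near absence and expression in the hairpin cultures. C1qa, C1qb and C1qc encode the chains of C1q, the recognition molecule of the classical pathway, and are neighbours on chromosome 4 (C1qb at 136880129 to 136886187, C1qc at 136889804 to 136893065 and C1qa at 136895917 to 136898803, minus strand, GRCm38). With no named hairpin they had 375, 306 and 389 reads, or 18.4, 15.01 and 19.1 RPM. The pooled control hairpin + 5-aza libraries held 26, 18 and 9 reads in all, each library being deeper than the single culture's, so that C1qb was 105-fold higher with no named hairpin (95% interval of the counting error 70.5 to 163), C1qc 124-fold (77 to 212) and C1qa 315-fold (164 to 693). C3ar1, the receptor for the complement fragment C3a, differed from them in that all hairpin libraries expressed it. It had 71 to 235 reads in each of the 12 and 241 in the culture with no named hairpin, at 11.8 RPM.

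Among Fc receptors and their adaptors, Fcer1g, the common gamma chain, was at 7.51 RPM with no named hairpin (153 reads) and had 0 to 7 reads in a hairpin library. Tyrobp, the adaptor DAP12, was at 3.43 RPM, and 8 of the hairpin libraries had no read of it. Fcrls had the highest ratio of all 13323 genes: 154 reads with no named hairpin (7.56 RPM) against 1 read in the control hairpin + 5-aza libraries together, a ratio of 1120 with a counting interval of 198 to 44600. Fcgr3, a low-affinity receptor for IgG, was at 4.71 RPM and kept 4 to 16 reads in each hairpin library; 12.8% of its transcript's 50-base words also occur in Fcgr2b, so some of these reads could belong to either. The immunoglobulin-like receptors Gp49a and Lilrb4 were at 11.3 and 8.24 RPM. Of the words of Lilrb4, 96.2% occur also in the gene models Lilr4b and Lilrb4a. Lilr4b was matched to Gp49a, and Lilrb4a to Lilrb4 itself. Lilr4b shares 20.2% of its words with Lilrb4a, and Lilrb4a shares 22% of its words with Lilr4b. The intervals of Gp49a and Lilrb4 overlap on chromosome 10, so they cannot be counted as separate observations. Trem2, a lipid-sensing receptor that signals through Tyrobp, was at 1.86 RPM, and Cd84, a receptor of the SLAM family, was at 3.53 RPM.

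The surface receptors that define the lineage split. Emr1, the F4/80 antigen, had 110 reads with no named hairpin (5.40 RPM) and reads in only 3 of the 12 hairpin libraries, at most 4 in one. Ptprc (CD45) was at 3.68 RPM and Cx3cr1, the fractalkine receptor, at 7.06 RPM, 27.3-fold (16.5 to 47.2) and 23.3-fold (16.6 to 33.3) above the pooled control hairpin + 5-aza level. The interval listed for Cx3cr1 also spans 5 other genes. By contrast Csf1r, the CSF1 receptor, was at 7.12 to 9.85 RPM with hairpins, from 330 to 494 reads a library, and at 21.8 RPM with none named. Csf1, its ligand, was at 781 to 1532 RPM with hairpins and 782 RPM with none named, and Il34 at 1.597 to 5.77 RPM and 2.26 RPM. Among the scavenger and pattern receptors, Msr1 was at 7.11 RPM (55.6-fold, 34.3 to 95) and Mrc1, the mannose receptor, at 9.22 RPM (47.2-fold, 31.8 to 72.4), whereas Cd14, a co-receptor for bacterial lipopolysaccharide, was at 1.82 RPM from 37 reads against 0.446 to 1.47 RPM in the hairpin libraries. Ly86 had 9 reads there and 0 reads in all 12 others, a ratio of at least 21.8 to the control hairpin + 5-aza libraries if the 0 is set at its limit of 3 reads over the group.

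The genes of lysosome, secretion and killing included the highest levels. Lyz2 had 1139 reads with no named hairpin and was 55.7-fold (46.9 to 66.5) above the pooled control hairpin + 5-aza level, with 15.4% of its words shared with Lyz1. Mpeg1, which encodes the pore protein perforin-2, was at 24.0 RPM from 490 reads and 127-fold (87 to 194) higher. Laptm5, a lysosomal membrane protein of leukocytes, was at 22.0 RPM, Ctss, the protease cathepsin S, at 7.60 RPM, and Cybb, the catalytic chain of the phagocyte oxidase, at 4.81 RPM. Apoe, a lipid carrier that many cells make, was at 31.1 RPM and Cd68, a lysosomal glycoprotein, at 16.7 RPM. Of the signalling and actin genes, Lcp1, which encodes L-plastin, was at 29.0 RPM (77-fold, 58.4 to 103). Vav1, an exchange factor of blood cells, had 40 reads against 0 in the control hairpin + 5-aza libraries, a ratio of at least 97.1. Coro1a was at 2.21 RPM (11.7-fold, 7.14 to 19.5) and Aif1 (IBA1) at 0.638 RPM from 13 reads.

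The members differed widely in how much of that level the hairpin cultures held. Pooled over the 12 hairpin libraries, their level as a percent of that with no named hairpin ran from 0 to 47.2%, with a median of 1.1%. For 14 members it was under 1%, among them the C1q genes (0.131% to 0.417%), Mpeg1 (0.431%), Ctss (0.527%), Emr1 (0.217%) and Cybb (0.382%). A further 12 were at 1.05% to 5.26%, among them Lyz2 (1.05%), Mrc1 (3.24%) and Ptprc (5.26%). The remaining 7 were at 10.3% or more: Coro1a, Cd68 (13.4%), Itgam (10.4%), C3ar1 (22.8%), Cd53 (18.8%), Csf1r (38.5%) and Cd14 (47.2%). These members were thus not all low in the same proportion in the hairpin cultures.

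Small amounts of the low members were left in most hairpin libraries. The 18 members that did not reach 0.2 RPM in at least 3 hairpin libraries gave 216 values in these libraries, of which 95 were 0 reads, 75 were 1 to 3 reads and 46 were more, with 21 reads of Mpeg1 as the highest. C1qa, C1qb and C1qc together had 2, 9 and 6 reads in control hairpin replicates 1, A and B, and 15, 29 and 9 in the same replicates with 5-aza. They had 0, 4 and 0 reads with the Setdb1 hairpin, and 2, 9 and 9 with the Setdb1 hairpin + 5-aza. Replicate A of control hairpin + 5-aza was the highest, at 0.624 RPM (95% Poisson interval 0.418 to 0.897), or 1.19% of the level with no named hairpin. The 0 reads of Setdb1 hairpin replicates 1 and B allow up to 3 reads each, so that a difference from control hairpin replicate 1, with 2 reads, was not detectable.

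Summed over the 18 low members, the level was 0.566 ± 0.187 RPM (SD, n = 3) with control hairpins, 1.28 ± 0.651 with control hairpin + 5-aza, 0.343 ± 0.308 with Setdb1 hairpins and 0.576 ± 0.341 with Setdb1 hairpin + 5-aza. The control hairpin + 5-aza libraries, at 0.819 to 2.02 RPM, lay above those of both groups without 5-aza (0.425 to 0.778 RPM with control hairpins and 0.119 to 0.694 RPM with Setdb1 hairpins) and overlapped the Setdb1 hairpin + 5-aza libraries (0.192 to 0.84 RPM). All other pairs of groups overlapped. The highest was again replicate A of control hairpin + 5-aza with 94 reads, and the lowest was Setdb1 hairpin replicate B with 7. Both shSetdb1.6 libraries were low, with 9 and 10 reads without and with 5-aza, where shSetdb1.4 replicate A had 33 and 42 and replicate B 7 and 35. Against 148 RPM with no named hairpin, all 12 were at 0.0804% to 1.37%.

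**Figure D3:**
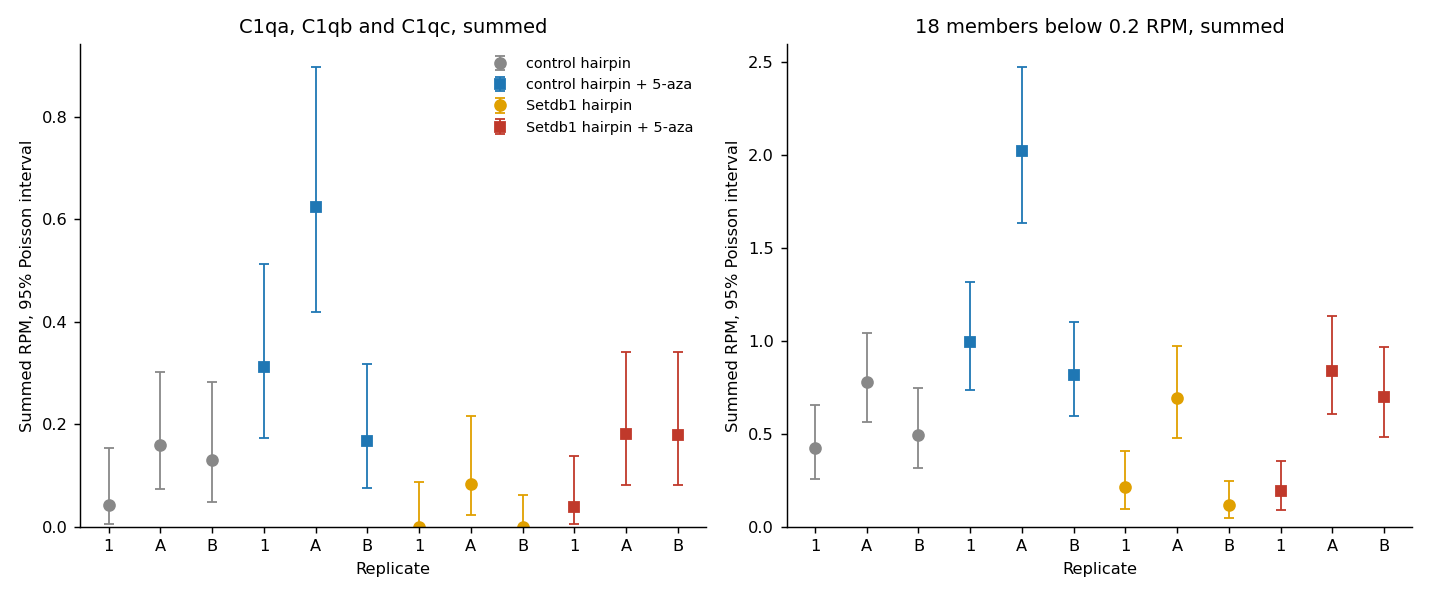
Summed RPM of the C1q genes (left) and of the 18 members below the filter (right) in each of the 12 hairpin libraries, with 95% Poisson intervals of the reads, which cover counting error only. Control hairpin + 5-aza replicate A is the highest in both, at 0.624 and 2.02 RPM, and most other intervals overlap one another.

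Over all 33 members the sum was 16.2 ± 0.574 RPM (SD, n = 3) with control hairpins, 23.4 ± 0.68 with control hairpin + 5-aza, 16.4 ± 0.289 with Setdb1 hairpins and 23.4 ± 1.08 with Setdb1 hairpin + 5-aza, against 377 RPM (368 to 385) with no named hairpin. Every library with 5-aza, at 22.7 to 24.7 RPM, was above every library without it, at 15.5 to 16.6 RPM. Csf1r alone accounted for 7.53 RPM of the control hairpin mean and 9.07 RPM of that with 5-aza, as the largest single share of the sum.

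Comparisons among the 12 hairpin libraries asked whether the hairpin or 5-aza changed these genes. They could be tested for the 15 members that reached 0.2 RPM in 3 or more libraries, by limma on log2 RPM with adjustment over all 15137 genes tested. The other 18 were too low. Since the filter used the same libraries, counts over the 15 describe them and support nothing further. No statement says whether separate libraries came from separate embryos, so p-values measure the spread between these libraries.

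5-aza raised 6 of the 15 with control hairpins, where 17.4% of all genes were called in either direction, 12.8% higher and 4.66% lower. They were Cd53, Itgam, Lyz2, C3ar1, Apoe and Csf1r. The median log2 fold change was 0.55 over the 15 and 0.05 over all genes. With Setdb1 hairpins 5 of the 15 were raised, where 26.3% of all genes were called, 19.7% higher and 6.61% lower: Cd53, C3ar1, Cd14, Cd68 and Csf1r. Here libraries of the same replicate deviated together. With the replicate as a block 9 of the 15 were raised, with Mrc1, Laptm5, Apoe and Lyz2 added, where 37.1% of all genes were called in either direction. No member was lowered by 5-aza in either comparison. These counts describe the 15 and nothing is read from them about macrophage genes, and the difference between the comparisons was not tested.

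**Figure D4:**
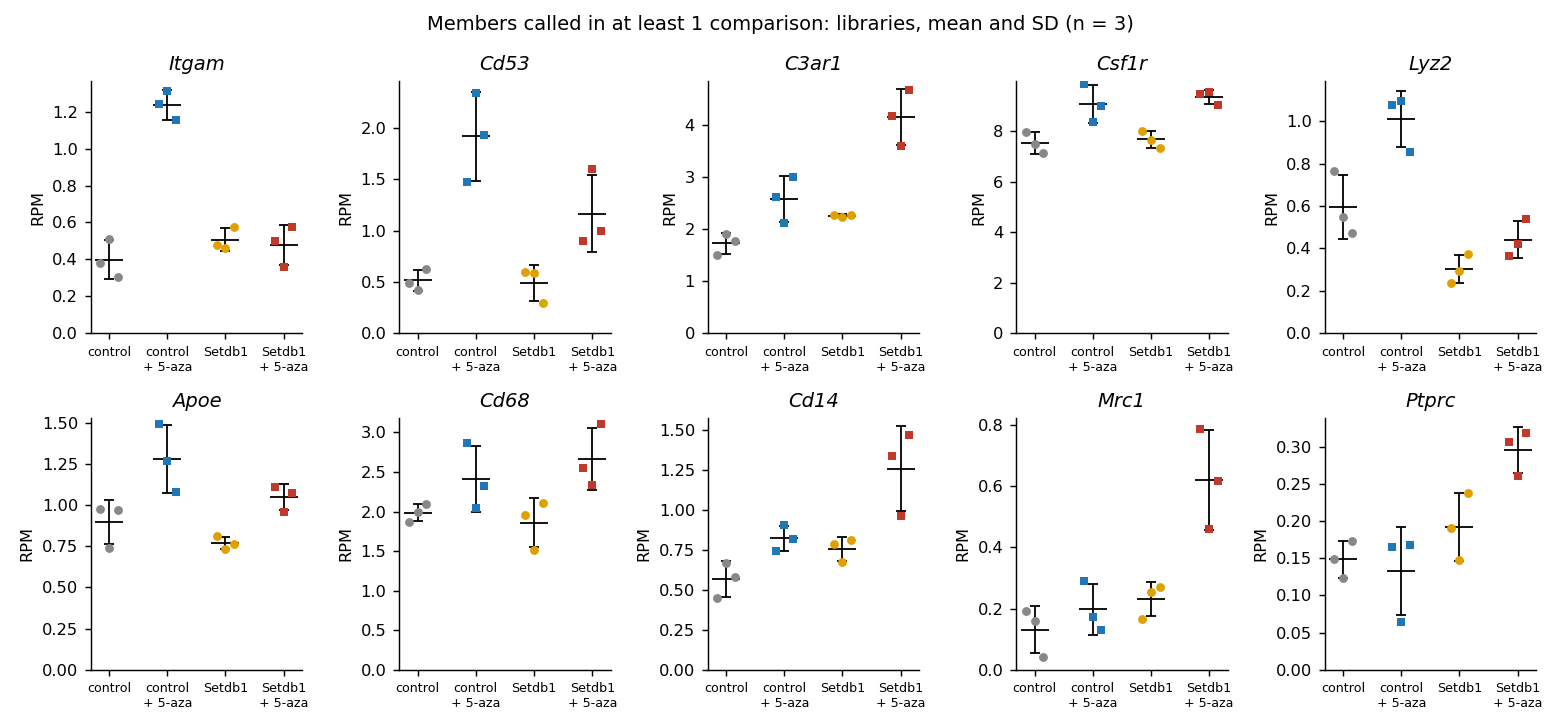
RPM of the 10 members called in at least 1 comparison, with 1 point per library and the mean and SD of each group (n = 3, axes from 0). Itgam stands near 1.2 RPM only in control hairpin + 5-aza, while Cd53, C3ar1 and Csf1r are higher with 5-aza under both hairpins.

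Cd53, a tetraspanin of leukocytes on chromosome 3 (106758861 to 106790149, minus strand), had the largest log2 fold change after 5-aza of the 15 tested. It was at 0.489, 0.424 and 0.626 RPM in control hairpin replicates 1, A and B and at 1.47, 2.35 and 1.94 RPM with 5-aza. With Setdb1 hairpins it was at 0.596, 0.589 and 0.289 RPM without and at 0.901, 1.6 and 0.995 RPM with 5-aza. Neither pair of groups overlapped. Its rise on the log2 scale was 1.90 (SE 0.31, adjusted p = 0.00167, limma) with control hairpins and 1.27 (SE 0.31, adjusted p = 0.0112) with Setdb1 hairpins, and both calls held under every alternative run. The difference between them did not pass the test (-0.62, SE 0.44, adjusted p = 0.789). Even the highest hairpin library was below the 5.40 RPM with no named hairpin.

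Itgam, which encodes CD11b, the alpha chain of complement receptor 3, on chromosome 7 (128062640 to 128128160, plus strand), was raised only with control hairpins. It was at 0.383, 0.513 and 0.302 RPM in their replicates 1, A and B, and at 1.24, 1.31 and 1.15 RPM with 5-aza, so that the groups lay far apart. With Setdb1 hairpins it was at 0.477, 0.463 and 0.578 RPM without 5-aza and at 0.499, 0.36 and 0.577 RPM with it, and these overlapped. The log2 fold change after 5-aza was 1.66 (SE 0.23, adjusted p = 0.000536, limma) with control hairpins and -0.10 (SE 0.23, adjusted p = 0.77) with Setdb1 hairpins. The difference of the 2 responses was -1.76 (SE 0.32, adjusted p = 0.0357), the only member called for the interaction, where 0.357% of all genes were (0.00661% higher and 0.35% lower). That call was close to the threshold: it was lost on leaving out any 1 library except control hairpin replicate A (adjusted p 0.026 to 0.121, log2 difference -1.96 to -1.57), and without the filter (0.106). Of the words of its transcript, 72.4% occur also in Gm49368, a gene model at the same locus.

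Other macrophage markers moved with Itgam and Cd53 in part. With control hairpins the C1q genes together went from 17 reads without to 53 reads with 5-aza, where Itgam went from 61 to 183 and Cd53 from 76 to 284, and all 3 were highest with control hairpin + 5-aza. The summed level of the 18 low members was also highest in that group (0.819 to 2.02 RPM). With Setdb1 hairpins the C1q genes had 4 and 20 reads without and with 5-aza, where Itgam had 76 and 73 and Cd53 70 and 177. Library by library, control hairpin + 5-aza replicates 1, A and B had 15, 29 and 9 reads of C1q, 0, 4 and 0 reads of Emr1, and 60, 61 and 62 reads of Itgam. In the culture with no named hairpin the C1q genes had 1070 reads, Emr1 110 and Itgam 128. The part of these markers in the changes of Itgam and Cd53 was not tested.

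C3ar1 (chromosome 6, 122847138 to 122856161, minus strand) was called higher with 5-aza under both hairpins, and higher with the Setdb1 hairpin only in the presence of 5-aza. It was at 1.51, 1.91 and 1.77 RPM in control hairpin replicates 1, A and B, 2.61, 2.11 and 3 RPM with 5-aza, 2.27, 2.23 and 2.28 RPM with Setdb1 hairpins and 4.18, 3.6 and 4.68 RPM with both. The group with both lay above all the others. The log2 fold change after 5-aza was 0.57 (SE 0.14, adjusted p = 0.0164, limma) with control hairpins and 0.87 (SE 0.14, adjusted p = 0.00135) with Setdb1 hairpins, and that of the Setdb1 hairpin was 0.70 (SE 0.14, adjusted p = 0.00558) with 5-aza and 0.39 (SE 0.14, adjusted p = 0.0929) without it. The interaction was 0.31 (SE 0.20, adjusted p = 0.789). The call after 5-aza with control hairpins was lost without control hairpin replicate 1 (adjusted p = 0.0526) or control hairpin + 5-aza replicate B (0.071), and with quantile normalization (0.0888).

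Csf1r rose by a small and even amount. It was at 7.97, 7.49 and 7.12 RPM in control hairpin replicates 1, A and B and at 9.85, 8.35 and 9.01 RPM with 5-aza, and at 8.01, 7.66 and 7.34 RPM and 9.47, 9.54 and 9.02 RPM with Setdb1 hairpins. The libraries with and without 5-aza did not overlap under either hairpin. The log2 fold changes were 0.27 (SE 0.07, adjusted p = 0.0233, limma) and 0.29 (SE 0.07, adjusted p = 0.0131). The first was lost without control hairpin replicate A or B or control hairpin + 5-aza replicate 1 or B (adjusted p 0.0638 to 0.0993), with quantile normalization (0.0504) and with only the 2 groups fitted (0.0634). The listed interval of Csf1r overlaps Hmgxb3 on the other strand, and whether counting used the strand is not stated.

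Lyz2 was the member that differed by hairpin in both conditions. It was at 0.765, 0.548 and 0.475 RPM in control hairpin replicates 1, A and B and at 0.239, 0.295 and 0.374 RPM in those of the Setdb1 hairpin, from 10 to 36 reads. With 5-aza it was at 1.08, 1.1 and 0.856 RPM and at 0.364, 0.42 and 0.538 RPM. The Setdb1 hairpin groups were lower without overlap, with log2 fold changes of -0.97 (SE 0.24, adjusted p = 0.0219, limma) and -1.21 (SE 0.24, adjusted p = 0.00536). Without 5-aza the call was lost when replicate 1 or A of either group was left out (adjusted p 0.0527 to 0.0992) or no filter was used (0.0654). After 5-aza Lyz2 rose by 0.78 on the log2 scale with control hairpins (SE 0.24, adjusted p = 0.042), a call lost without control hairpin replicate A or B, any control hairpin + 5-aza library or Setdb1 hairpin replicate A (adjusted p 0.0516 to 0.16) and with median centring, quantile normalization or no filter (0.0536 to 0.117). C1q reads were lower in number with the Setdb1 hairpin too, at 4 against 17 over 3 libraries each without 5-aza and 20 against 53 with it, and their part in this result was not tested.

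Without 5-aza Lyz2 was the only 1 of the 15 that differed between Setdb1 and control hairpins, where 11.6% of all genes tested did (8.42% higher and 3.22% lower). With 5-aza 5 of the 15 did, against 18.2% of all genes (13.2% higher and 5.04% lower): Ptprc, Mrc1 and C3ar1 were higher and Itgam and Lyz2 lower with the Setdb1 hairpin. This comparison shares its control hairpin + 5-aza libraries with the one of 5-aza against none, so the calls of Itgam in the 2 are not separate evidence. Ptprc passed the filter only through Setdb1 hairpin libraries, so its place in the count supports nothing. Itgam was lower by a log2 fold change of -1.40 (SE 0.23, adjusted p = 0.00152, limma). Its level in the Setdb1 hairpin + 5-aza group was near that of both groups without 5-aza.

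Mrc1 was at 0.29, 0.172 and 0.13 RPM in control hairpin + 5-aza replicates 1, A and B (7 to 14 reads) and at 0.786, 0.46 and 0.617 RPM in the Setdb1 hairpin + 5-aza replicates (23 to 41 reads). The groups did not overlap, with a log2 fold change of 1.70 (SE 0.51, adjusted p = 0.0378, limma). Without 5-aza Setdb1 hairpin libraries had 7 to 16 reads. Ptprc was at 0.166, 0.0646 and 0.168 RPM (3 to 9 reads) and at 0.307, 0.26 and 0.319 RPM (13 to 16 reads), with a log2 fold change of 1.27 (SE 0.38, adjusted p = 0.0355). Both calls rest on few reads. Ptprc reached the 0.2 RPM of the filter only in Setdb1 hairpin libraries, at 0.238 to 0.319 RPM. It was thus tested only through the groups where it was high, and its call is no support for a difference. Mrc1 reached 0.2 RPM with a control hairpin only in control hairpin + 5-aza replicate 1. Mrc1 was lost without control hairpin + 5-aza replicate A or B or replicate 1 or B of Setdb1 hairpin + 5-aza (adjusted p 0.0981 to 0.141), and Ptprc without control hairpin + 5-aza replicate A, where its log2 fold change was 0.82 (adjusted p = 0.114), or replicate 1 or B of Setdb1 hairpin + 5-aza (0.11 to 0.112). Neither call stood without the filter (adjusted p = 0.0689 for Mrc1 and 0.0683 for Ptprc), and that of Ptprc did not with only the 2 groups fitted (0.0941). In the same libraries the C1q genes summed to 0.133 RPM on average with the Setdb1 hairpin + 5-aza and 0.368 RPM with control hairpin + 5-aza, opposite in order to Mrc1 and Ptprc.

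Apoe, Cd68 and Cd14 moved less. Apoe was at 0.742 to 0.978 RPM with control hairpins and 1.08 to 1.49 RPM with 5-aza (log2 fold change 0.51, SE 0.16, adjusted p = 0.0418, limma), a call that stood only without control hairpin replicate 1, control hairpin + 5-aza replicate B, Setdb1 hairpin replicate 1 or Setdb1 hairpin + 5-aza replicate A when libraries were left out 1 at a time (adjusted p 0.0356 to 0.155). Cd68 was at 1.52 to 2.11 RPM with Setdb1 hairpins and 2.34 to 3.11 RPM with 5-aza (0.52, SE 0.16, adjusted p = 0.0291). Cd14 was at 0.673 to 0.816 RPM and 0.96 to 1.47 RPM in the same groups (0.71, SE 0.20, adjusted p = 0.0207). Both calls were lost without Setdb1 hairpin replicate A or replicate 1 or B of Setdb1 hairpin + 5-aza (adjusted p up to 0.121 for Cd68 and 0.0917 for Cd14), and with quantile normalization or no filter (0.0576 to 0.108). With control hairpins Cd14 was at 0.446 to 0.672 RPM without and 0.746 to 0.904 RPM with 5-aza, which did not pass (0.55, SE 0.20, adjusted p = 0.072). Fcgr3, Cx3cr1, Coro1a and Lcp1 passed in no comparison at 0.0954 to 0.646 RPM in the hairpin libraries, and Laptm5 passed only with the replicate block.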

How the data were processed

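Poly(A) RNA of 13 MEF libraries was sequenced by the authors, and the deposited table holds log2 RPM for 25965 genes. The submitters' processing notes name CASAVA 1.4 and mm10; the aligner, the counting and its use of strand are not given in the sources used here. Every log2 value came out at a whole read within 0.1, with genes without reads stored at 0.9 read.

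Groups followed the labels. The hairpin groups were compared with limma 3.58.1 (R 4.3.3) on the deposited log2 RPM of the 12 hairpin libraries, for 15137 genes with at least 0.2 RPM (8.4 to 12 reads) in at least 3 libraries, in 5 contrasts with two-sided moderated tests and Benjamini-Hochberg adjustment over all genes at 0.05. The model was checked on simulated data. Libraries of the same replicate deviated together in the comparison of 5-aza within Setdb1 hairpins (correlations 0.286, 0.423 and 0.221), so the fit with a replicate block is given there. The correlations were 0.393, 0.127 and 0.086 for 5-aza within control hairpins, and 0.302, 0.504 and -0.0364 for the hairpins compared under 5-aza. Gene values for those comparisons are given without the block. The single library without a named hairpin was set against the pooled control hairpin + 5-aza libraries by exact conditional binomial intervals (95%), which cover counting error only, for genes of at least 1 RPM, with 3 reads over the group in place of 0. All 33 members are named by rule. Members, gene lists and tests were chosen with earlier results of these data known. The lists besides the members were further macrophage genes, genes of other blood cells, endothelium, osteoclasts and fibroblasts, class II genes and sex-linked genes. RefSeq promoter windows were of GRCm38.p6 and gene positions of GRCm38.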

Additional observations from a re-analysis of the deposited data

Results flagged for a closer look

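The response of Itgam to 5-aza differed between the hairpins, with a log2 difference of -1.76 (SE 0.32, adjusted p = 0.0357, limma). All 3 control hairpin + 5-aza libraries, at 1.15 to 1.31 RPM, were above the 9 others, which were at 0.302 to 0.578 RPM. With Setdb1 hairpins the groups with and without 5-aza overlapped. The adjusted p passed the threshold in the full data and without control hairpin replicate A, and not without any 1 of the other 11 libraries.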

How the results depend on the processing

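Of 155 values of the called log2 fold changes under other settings, 135 kept their call and 20 lost it, and of 216 with a library left out 168 kept and 48 lost it; none changed sign. Calls of Cd53 under both hairpins held throughout. The number of members called with the Setdb1 hairpin without 5-aza was 0 at a filter of 1 RPM (1 at an unadjusted p under 0.05) and 0 without a filter (3), and with 5-aza it was 2 at 1 RPM. Lyz2, Mrc1, Ptprc and Cd14 did not pass the filter of 1 RPM and were not tested there. The lower counts at 1 RPM therefore reflect members removed and not calls lost. For 5-aza the number called was 2 with control hairpins under quantile normalization, and with Setdb1 hairpins 3 under quantile normalization and 3 without a filter. The replicate block gave 9 there (5615 genes called), and it changed no count of members by over 1.5 times elsewhere (7 and 6). The interaction gave 0 without a filter (3 at an unadjusted p under 0.05). Leaving out a library gave 0 to 1, 3 to 7, 3 to 7, 3 to 6 and 0 to 1 members in the 5 contrasts. Apart from the 5615 genes under the block, the share of all genes called under each setting is not given here. These counts therefore do not separate a change in the members from a change in genes in general. The response of Itgam to 5-aza with Setdb1 hairpins, not called, ran from -0.2487 without Setdb1 hairpin + 5-aza replicate B to 0.0918 without its replicate A.

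The median ratio of members with no named hairpin was 6.36 against Setdb1 hairpin + 5-aza, 6.5 against all 12 libraries, 4.98 with 0.1 RPM added and 5.68 to 6.06 with a library left out, and 28 stood 4-fold higher each time a library was left out. Summed RPM without Apoe was 15.3, 22.2, 15.6 and 346 (control hairpin without and with 5-aza, Setdb1 hairpin, no named hairpin), scaled to reads in genes 18.5, 26.8, 18.8, 26.8 (both) and 442, and with a library left out 15.9 to 16.5, 23.1 to 23.8, 16.3 to 16.6 and 22.8 to 23.8. DESeq2 and edgeR were not run, since the table is on a log2 scale; voom on the recovered reads was added after seeing the data. Depth limits the 18 low members: differences of a few reads were not detectable.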

Other observations

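Beyond the 33 members, 93 further macrophage genes were found in the table. Of these, 58 had at least 1 RPM with no named hairpin or in the pooled control hairpin + 5-aza libraries, and 29 of the 58 were at least 4-fold higher with no named hairpin, against 1.38% of all genes, while 0 were 4-fold lower. Their median ratio was 1.78 on the log2 scale. The 4 with the highest levels there were lysosomal proteases and other genes that fibroblasts also express, at 716 RPM for Ctsd, 522 RPM for Ctsb, 195 RPM for Arhgdib and 186 RPM for Grn. None of these was among the 29, with ratios to the pooled control hairpin + 5-aza level of 0.826, 1.27, 0.989 and 1.33 in that order. Sfpi1, which encodes PU.1, was looked at after its values had been seen: it had 53 reads with no named hairpin, 0 in the control hairpin + 5-aza libraries and at most 1 read in any hairpin library.

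The lists for other cells were too low for the same count. None of the 10 neutrophil, 8 mast cell, 12 T and NK cell, 8 B cell and 7 erythroid genes reached 1 RPM with no named hairpin or in the pooled control hairpin + 5-aza libraries, so 0 could be counted as 4-fold higher. Of the class II, osteoclast and dendritic cell genes 1 each reached it, and of the megakaryocyte and endothelial genes 4 each, with 0 of them 4-fold higher. Below that level some genes stood higher with no named hairpin: Blnk of the B cell list had 16 reads against 2 in the control hairpin + 5-aza libraries (58.2-fold, 13.7 to 522), Il7r of the T and NK cell list 8 against 1 (58.2-fold, 7.81 to 2580) and Cd74 of the class II list 7 against 4 (12.7-fold, 3.24 to 59.3), each named after its values had been seen. Other genes below that level went the other way. Xcr1 and Clec9a of the dendritic cell list had 0 reads with no named hairpin against 90 and 28. Cd79a of the B cell list had 0 against 7, and Nkg7 of the T and NK cell list 0 against 8. H2-Eb1 of the class II list had 1 against 35 (0.208-fold, 0.00512 to 1.24). Of these, only the interval of Xcr1 (0 to 0.305) stayed below equal levels. At 0 reads there were 8 of 10 neutrophil genes, 9 of 12 T and NK cell genes and 6 of 8 B cell genes. The summed level of the neutrophil genes was 0.196 RPM with no named hairpin and 0 to 0.13 RPM with hairpins, that of the T and NK cell genes 0.687 RPM and 0.0432 to 0.317 RPM, that of the B cell genes 0.932 RPM and 0.151 to 0.577 RPM, and that of the class II genes 2.85 RPM and 2.17 to 4.24 RPM. The first 3 sums were thus above every hairpin library, from few reads, and Blnk alone gave 0.785 RPM of the B cell sum. Also above every hairpin library were the sums of the mast cell genes (0.491 RPM against 0.186 to 0.441), the osteoclast genes (34.1 against 15.9 to 29.95) and the dendritic cell genes (4.61 against 2.695 to 3.97). The class II, erythroid, megakaryocyte and endothelial sums lay within the range with hairpins.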
